A study of Homo sapiens with 4 samples.

Results

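The genes described here are the core of the transforming growth factor β (TGF-β) pathway, taken by name as 3 ligands (TGFB1, TGFB2 and TGFB3), 2 receptors (TGFBR1 and TGFBR2), the signal transducers SMAD2, SMAD3 and SMAD4, the inhibitory SMAD7 and the secreted product TGFBI. All 10 had 1 identifier each on the primary chromosomes among the 63677 genes of the count files, and all 10 had enough reads to be tested. The study measured poly(A) RNA by RNA-seq in IMR90, fibroblasts of human fetal lung, to ask which transcripts depend on the nuclear protein HMGB1. Cells of 2 isolates, I90-10 and I90-79, were grown in MEM with serum and transfected through RNAiMAX with a non-targeting control siRNA or with siRNAs against HMGB1, and were collected after 72 h. Each group had 2 libraries, and in both groups replicate 1 was isolate I90-10 and replicate 2 was isolate I90-79. The study's methods name 2 different siRNAs against HMGB1 and do not say which served in these libraries.

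TGF-β ligands are secreted as latent complexes that are stored in the matrix until they are activated. The active dimer binds the type II receptor TGFBR2, which recruits and phosphorylates the type I receptor TGFBR1, and this kinase in turn phosphorylates SMAD2 and SMAD3. These join SMAD4 and enter the nucleus, where they act on target genes that include their own inhibitor SMAD7. In fibroblasts the pathway is known as the main inducer of collagen, fibronectin and contractile proteins, and it is one of the signals that senescent cells send to their neighbours.

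The libraries held between 29861687 and 35317010 counted reads. HMGB1, the target of the siRNAs, had 181 and 237 CPM (counts scaled to a common library total, with TMM factors) in the control libraries and 16.0 and 18.9 CPM in the knockdown libraries, which gave a log2-fold change of −3.59 ± 0.19 (SE; edgeR quasi-likelihood, adjusted p = 0.0075). All 10 fibroblast markers looked at were detected in every library, among them COL1A1 with between 181850 and 368922 counts. Their changes went in both directions. In edgeR with the isolate as a block, THY1 had a log2-fold change of −0.99 (adjusted p = 0.000311) and PDGFRB of −0.68 (adjusted p = 0.0026). LUM had 0.83 (adjusted p = 0.0029) and COL1A1 −0.10 (adjusted p = 0.502). Without the block the adjusted p-values of THY1, PDGFRB and LUM were 0.298, 0.277 and 0.0987. Of 7 epithelial markers, 6 had 3 counts or fewer in all libraries, and KRT5, KRT14 and SCGB1A1 had 0. Of 5 immune markers, 3 had 3 counts or fewer in all libraries, and CD3E of T cells had 0. CD79A had 2 and 3 counts in control and 10 and 5 in knockdown libraries. CD14 had 1 and 3 counts in control and 5 and 3 in knockdown libraries, and both were too low to be tested. CDH5 of endothelial cells also had 0 counts, while the endothelial receptor TEK had between 3791 and 5440. Of the other endothelial markers, VWF had 40 and 34 counts in control and 120 and 81 in knockdown libraries (log2-fold change 1.57, adjusted p = 0.068, and 1.55 with the isolate as a block, adjusted p = 0.0036), and CLDN5 had 3 and 7 counts in control and 2 and 25 in knockdown libraries. The part of endothelial transcripts in the results was not tested. In bulk RNA such as this, fewer cells of a kind and less RNA per cell cannot be told apart. Nothing in the labels says that the libraries came from more than 1 culture per isolate and treatment. The p-values therefore measure the spread between these libraries, which edgeR moderates with the spread of all genes tested. With the isolate as a block, little spread of a single gene is left. The p-values of that fit rest largely on the spread shared over all genes.

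No member passed the thresholds set for the comparison, an adjusted p under 0.01 together with a log2-fold change beyond 0.6 in either direction, in the test without a term for the isolate. Of all 15398 genes tested, 0.201% did, 0.0649% higher and 0.136% lower in the knockdown. At an adjusted p below 0.05 with any fold change the count of members was again 0, against 8.44% of all genes (3.94% higher and 4.5% lower). At an unadjusted p below 0.05, 1 member had a higher and 4 had a lower level in the knockdown, 5 of 10 against 28.3% of all genes (13.6% higher and 14.7% lower). When the isolate was entered as a replicate block, TGFB1 and SMAD7 were upregulated and no member was downregulated, 2 of 10 against 14.5% of all genes (6.68% up and 7.84% down). In that fit TGFBR1, TGFBR2 and SMAD3 had adjusted p-values between 0.0047 and 0.0061 with log2-fold changes between −0.55 and −0.50, short of the threshold on size. At an adjusted p below 0.05 with any fold change, that fit had 2 members higher and 4 lower, 6 of 10 against 32.3% of all genes. For 6 members the groups of libraries did not overlap, 2 with higher and 4 with lower values in the knockdown, the same share as among all genes tested (59.9%, 29.8% higher and 30.2% lower). The median log2-fold change of the 10 members was −0.07, beside −0.0054 over all genes tested.

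**Figure D1:**
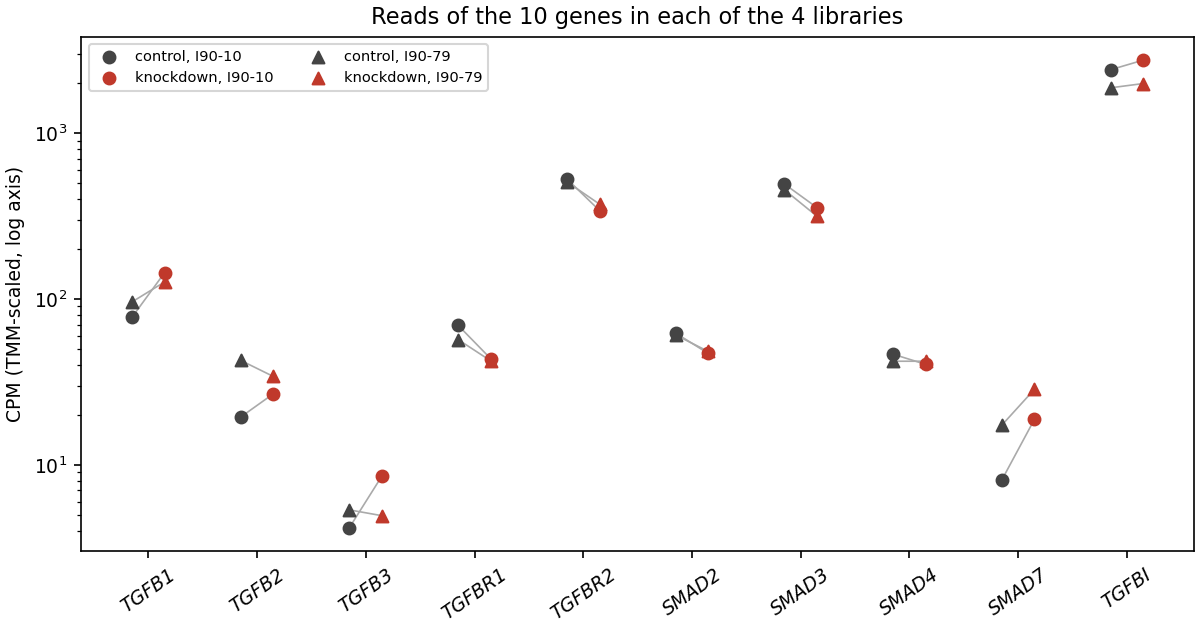
CPM of the 10 genes (log axis) in the 2 control libraries (grey) and the 2 knockdown libraries (red), with a line joining the libraries of 1 isolate (circles I90-10, triangles I90-79). The lines of TGFB1, SMAD7 and, by less, TGFBI go up in both isolates, and those of TGFBR1, TGFBR2, SMAD2 and SMAD3 go down in both. Those of TGFB2 go up in I90-10 and down in I90-79 without crossing.

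Among the ligands, TGFB1 (ENSG00000105329, hg19 chromosome 19 from 41807492 to 41859816, minus strand), the form most widely made by mesenchymal and blood cells, had 77.6 and 95.9 CPM in the control and 144 and 127 CPM in the knockdown libraries. Both knockdown libraries lay above both controls. The log2-fold change was 0.64 ± 0.15 (SE, 95% interval 0.26 to 1.02, adjusted p = 0.063), a 1.56-fold higher mean, and with a replicate block for the isolate it was 0.65 (adjusted p = 0.0066), which passed the thresholds. It was 0.89 in isolate I90-10 (95% counting interval 0.82 to 0.97) and 0.40 in isolate I90-79 (0.33 to 0.47). Of the exonic bases of TGFB1, 6.64% also belong to HNRNPUL1 on the opposite strand, and the strand setting of the counting is not given in the sources used here.

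TGFB2 (ENSG00000092969, chromosome 1 from 218519577 to 218617961, plus strand), the ligand that needs a co-receptor to bind TGFBR2 well, had 19.4 CPM in the control of I90-10 and 42.6 in that of I90-79, a 2.19-fold difference between isolates. In the knockdown it had 26.8 and 34.1 CPM, so that the groups overlapped. Its log2-fold change of −0.03 ± 0.38 (SE, 95% interval −0.98 to 0.92, adjusted p = 0.969) stood beside isolate ratios of opposite sign, 0.47 in I90-10 and −0.32 in I90-79. TGFB3 (ENSG00000119699, chromosome 14 from 76424442 to 76449334, minus strand), the ligand of palate and scar-poor wounds, was the least abundant member, with 4.19 and 5.35 CPM in control and 8.59 and 4.93 CPM in knockdown libraries. These values rested on between 123 and 248 reads, the groups overlapped, and the log2-fold change was 0.50 ± 0.33 (SE, 95% interval −0.33 to 1.33, adjusted p = 0.372). A log2 ratio of 1.04 in I90-10 stood beside −0.12 in I90-79, whose counting interval of −0.43 to 0.20 includes 0. An antisense gene, TGFB3-AS1, covers 3.32% of the exonic bases of TGFB3.

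Both receptors had lower levels in the knockdown, by a like proportion. TGFBR2 (ENSG00000163513, chromosome 3 from 30647994 to 30735634, plus strand), the receptor that binds the ligand first, had 529 and 508 CPM in control and 341 and 373 CPM in knockdown libraries. The groups did not overlap, and their difference was larger than the gap between libraries of a group. The log2-fold change was −0.54 ± 0.13 (SE, 95% interval −0.86 to −0.21, adjusted p = 0.066), or −0.54 with the replicate block (adjusted p = 0.0047). TGFBR1 (ENSG00000106799, chromosome 9 from 101866320 to 101916474, plus strand), the kinase that acts on SMAD2 and SMAD3, had 69.2 and 56.8 CPM in control and 43.5 and 42.3 CPM in knockdown libraries. Here too the groups were apart, with a log2-fold change of −0.55 ± 0.14 (SE, 95% interval −0.90 to −0.21, adjusted p = 0.071) and −0.55 with the block (adjusted p = 0.0061). In isolate I90-10 the log2 ratios were −0.63 for TGFBR2 and −0.67 for TGFBR1, and in I90-79 they were −0.45 and −0.43.

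SMAD3 (ENSG00000166949, chromosome 15 from 67356101 to 67487533, plus strand), the transducer that binds DNA itself, had 493 and 455 CPM in control and 355 and 315 CPM in knockdown libraries. Both knockdown libraries were below both controls, by a log2-fold change of −0.50 ± 0.14 (SE, 95% interval −0.84 to −0.16, adjusted p = 0.085). With the block it was −0.50 (adjusted p = 0.0051), and the isolates gave −0.47 and −0.53. SMAD2 (ENSG00000175387, chromosome 18 from 45357922 to 45457515, minus strand), whose main protein form binds DNA only through partners, had 62.2 and 60.6 CPM in control and 46.9 and 48.2 CPM in knockdown libraries. The libraries of a group differed by less than 2 CPM and the groups were apart, and the log2-fold change was −0.37 ± 0.11 (SE, 95% interval −0.64 to −0.10, adjusted p = 0.097, and 0.023 with the block). SMAD4 (ENSG00000141646, chromosome 18 from 48494410 to 48611415, plus strand), the common partner that TGF-β and BMP signals share, had 46.4 and 42.1 CPM in control and 40.3 and 42.1 CPM in knockdown libraries. The groups overlapped, with a log2-fold change of −0.10 ± 0.12 (SE, 95% interval −0.40 to 0.20, adjusted p = 0.612). This interval leaves room for a decrease as large as the −0.37 of SMAD2. With the block the value was −0.10 (95% interval −0.34 to 0.14, adjusted p = 0.503), an interval that does not reach −0.37. ELAC1 and a second gene share 9.03% of the exonic bases of SMAD4 on the same strand.

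SMAD7 (ENSG00000101665, chromosome 18 from 46446223 to 46477081, minus strand), which blocks the receptors and is itself a rapid target of SMAD3, had 8.10 CPM in the control of I90-10 and 17.3 in that of I90-79. In the knockdown it had 18.8 and 28.5 CPM. The lowest knockdown value lay just above the highest control value, and in each isolate the knockdown was higher, 2.32-fold in I90-10 and 1.65-fold in I90-79. Without the isolate term the log2-fold change of 0.89 had a standard error of 0.40 (95% interval −0.12 to 1.91, adjusted p = 0.219), whereas with the block it was 0.95 (95% interval 0.60 to 1.30, adjusted p = 0.0024) and passed the thresholds. Without control replicate 2 it was 1.55, and without control replicate 1 it was 0.45. TGFBI (ENSG00000120708, chromosome 5 from 135364584 to 135399507, plus strand), a matrix protein named for its induction by TGF-β, was the most abundant member, with 2407 and 1873 CPM in control and 2751 and 1987 CPM in knockdown libraries. The isolates differed more than the treatments, the groups overlapped, and the log2-fold change was 0.15 ± 0.24 (SE, 95% interval −0.45 to 0.74, adjusted p = 0.725, and 0.309 with the block).

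**Figure D2:**
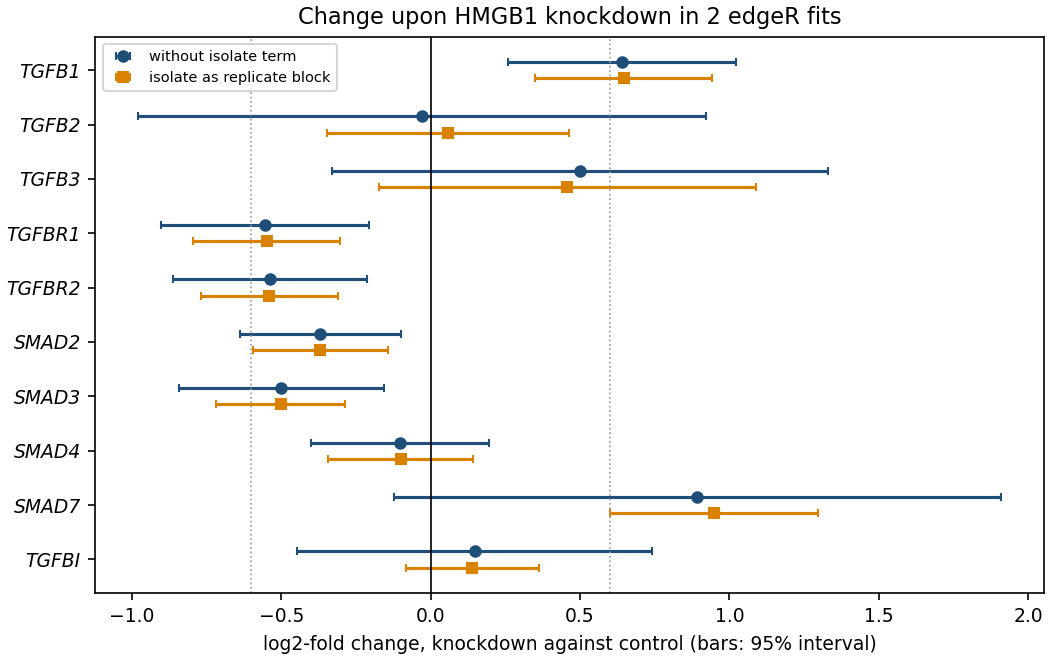
Log2-fold change of each gene upon HMGB1 knockdown with its 95% interval (bars), without a term for the isolate (blue circles) and with the replicate block (orange squares). Dotted lines mark the threshold of 0.6 in either direction. The intervals of TGFB1, TGFBR1, TGFBR2, SMAD2 and SMAD3 leave out 0 in both fits, that of SMAD7 only with the block. The intervals are not adjusted for the number of genes tested. Without the block every member had an adjusted p above 0.05 (edgeR), and 28.3% of all genes had an unadjusted p below 0.05.

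The log2 ratio was above 0 in both isolates for TGFB1, SMAD7 and TGFBI and below 0 in both for TGFBR1, TGFBR2, SMAD2 and SMAD3. Of all 15398 genes tested, 5987 were above 0 in both isolates, 6071 were below 0 in both, and 3340 differed in direction. For SMAD4 the log2 ratio was −0.20 in I90-10 and 6e-04 in I90-79. The ratios of TGFB1, TGFB2, TGFB3, SMAD7 and TGFBI were larger in I90-10 than in I90-79, with counting intervals that do not meet. The decreases of TGFBR1 and TGFBR2 were also larger in I90-10, again with intervals that do not meet. The intervals of SMAD2, SMAD3 and SMAD4 overlapped between the isolates. With 1 library per isolate and treatment a difference between the isolates cannot be tested.

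**Figure D3:**
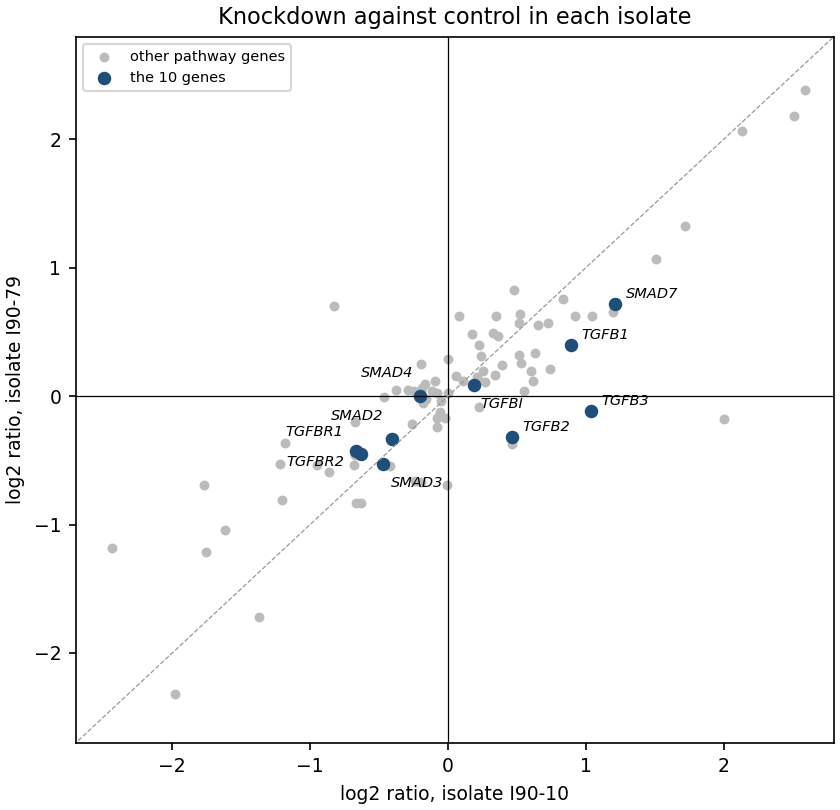
Log2 ratio of knockdown to control in isolate I90-10 (horizontal axis) and I90-79 (vertical axis) for the 10 genes (blue, named) and the other pathway genes (grey), with a dashed line of equal ratios. TGFB2 and TGFB3 lie in the quadrant where I90-10 is above and I90-79 below 0.

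Levels of different genes were compared per length, as CPM per kilobase of the exonic bases that the files list for a gene. This length adds up all isoforms, so genes with many long isoforms, such as SMAD2 and SMAD4, come out lower than a single transcript would. On this scale the order in the control libraries was TGFBI (273 ± 48.2, SD, n = 2), TGFBR2 (110.2 ± 3.13), SMAD3 (52.0 ± 2.95), TGFB1 (26.8 ± 4.01), TGFBR1 (9.21 ± 1.28), TGFB2 (6.02 ± 3.18), SMAD2 (4.46 ± 0.0808), SMAD7 (3.45 ± 1.77), SMAD4 (3.31 ± 0.228) and TGFB3 (0.97 ± 0.167). The ranges of neighbours overlapped from TGFB2 through SMAD2 and SMAD7 to SMAD4, and the others were apart. In the knockdown libraries TGFB1 (41.8 ± 3.81 CPM per kilobase) stood above SMAD3 (36.8 ± 3.11), the reverse of their order in control libraries. SMAD7 (6.41 ± 1.86) stood beside TGFBR1 (6.27 ± 0.13) with overlapping ranges.

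Within each class 1 gene held most of the level. Of the ligands, TGFB1 made up 79.9% ± 5.54 (SD, n = 2) of the CPM per kilobase in control and 85.1% ± 1.98 in knockdown libraries. Of the receptors, TGFBR2 made up 92.3% ± 0.788 and 92.3% ± 0.591. The level of TGFBR2 was 11.1 and 13.0 times that of TGFBR1 in the control and 11.4 and 12.8 times in the knockdown libraries, so that this ratio overlapped between the groups and kept to the isolate. Among SMAD2, SMAD3 and SMAD4, SMAD3 made up 87.0% ± 0.192 in control and 84.9% ± 1.41 in knockdown libraries, and the share of SMAD4 was 5.54% ± 0.0801 and 7.15% ± 0.708. The ratio of TGFB1 to TGFBR2 was 0.213 and 0.274 in control and 0.614 and 0.494 in knockdown libraries, and that of SMAD3 to SMAD7 was 24.6 and 10.6 in control and 7.65 and 4.47 in knockdown libraries. Neither of these last ratios overlapped between groups. Each pairs a gene whose knockdown values lay above both controls with a gene whose values lay below both. The separation of the ratios therefore follows from the single genes and adds no further result. The ratios of SMAD3 to SMAD2 and of TGFB1 to TGFB2 overlapped between groups. Besides, groups of 2 libraries are too few for an exact permutation test to reach 0.05 (its lowest possible two-sided p here is 0.33).

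**Figure D4:**
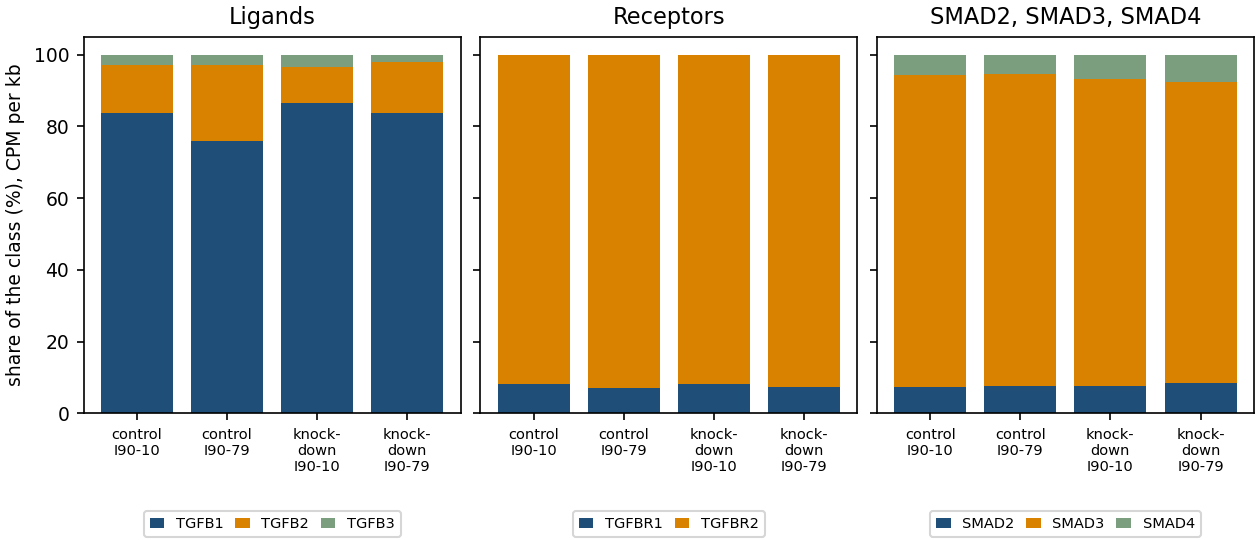
Share of each gene in the summed CPM per kilobase of its class (bars, in percent, from 0 to 100) in each of the 4 libraries. TGFB1, TGFBR2 and SMAD3 hold most of their classes in every library, and the share of TGFB1 is lowest, 76.0%, in the control of I90-79.

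The 3′ UTRs of the members were searched for the word GCAGTT on the transcript strand, because earlier work on these counts had singled this word out among all genes. Of 11590 tested genes with a 3′ UTR of at least 100 bases, 33.8% hold it. Their median log2-fold change was −0.17, beside 0.07 for those without it, and their median 3′ UTR was 2541 bases beside 835. Of the 10 members, 7 hold the word and TGFB1, SMAD7 and TGFBI do not. Among genes with a 3′ UTR within 20% of the same length, the share that holds it was 86.8% for SMAD2, 87.7% for SMAD4, 74.9% for TGFBR1, 72.7% for SMAD3, 58.4% for TGFB2, 51.3% for TGFBR2 and 24.4% for TGFB3, and 16.6%, 32.8% and 12.4% for TGFB1, SMAD7 and TGFBI. The copies numbered 7 in SMAD2, 4 in SMAD3, 4 in SMAD4, 2 in TGFBR1 and 1 each in TGFBR2, TGFB2 and TGFB3. Among the same genes of like length, the mean was 2.81 copies for SMAD2, 1.37 for SMAD3, 1.97 for SMAD4, 1.46 for TGFBR1, 0.737 for TGFBR2, 0.933 for TGFB2 and 0.278 for TGFB3. The members with the word include SMAD4, TGFB2 and TGFB3, whose groups overlapped. The part of the word in the levels was not tested.

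A part of the sites is shown with their surroundings. They are those of both receptors and of SMAD3, whose levels were lower in the knockdown, and of SMAD4, whose groups overlapped. The sites of SMAD2, whose level was also lower and which holds the most copies, and those of TGFB2 and TGFB3 are not shown. Each line gives 30 bases of the GENCODE transcript from 5′ to 3′ with the word in capitals (GRCh37, plus strand in all):
TGFBR1, chr9:101913994-101914023: ttacgtattactGCAGTTaattcctttttt
TGFBR1, chr9:101915516-101915545: ttctccaggtttGCAGTTttatttctataa
TGFBR2, chr3:30734798-30734827: aaggtcccatttGCAGTTagaaaatttgtg
SMAD3, chr15:67484191-67484220: gtgacaactataGCAGTTgtattgtgtaac
SMAD3, chr15:67484931-67484960: aagccatgggcaGCAGTTtccgagggcctg
SMAD3, chr15:67485543-67485572: gaggaaaccaggGCAGTTctagaggagtgc
SMAD3, chr15:67485574-67485603: ggtgactggataGCAGTTttaagtggcgtt
SMAD4, chr18:48606751-48606780: taagttttattgGCAGTTttataaaaagac
SMAD4, chr18:48608357-48608386: cttttgggagaaGCAGTTttattctctgag
SMAD4, chr18:48608807-48608836: gccttatccctaGCAGTTgtcccagtgctg
SMAD4, chr18:48610153-48610182: ggctaccttgcaGCAGTTttggatttcttc

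The other genes of the pathway were taken from 5 lists by role, 84 genes of which 81 were tested. Of these, 1 was upregulated and 0 were downregulated at the thresholds, 1 of 81 against 0.201% of all genes. At an adjusted p below 0.05, 7 had risen and 4 had fallen, 11 of 81 against 8.44% of all genes, and with the replicate block 12 were up- and 12 were downregulated, 24 of 81 against 14.5% of all genes. The medians of the lists lay between −0.09 and 0.20 on the log2 scale.

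Of the genes that store and activate the ligands, 12 of 13 were tested, and 6 had higher and 6 lower levels (median log2-fold change 0.0074). ITGB8, a subunit of the integrin that frees TGF-β from its latent complex, had 37.1 and 28.5 CPM in control and 223 and 149 CPM in knockdown libraries. Its rise by a log2-fold change of 2.50 ± 0.25 (SE, adjusted p = 0.013) passed the threshold of 0.05, and it was called with the block (adjusted p = 1.6e-05). FURIN, the protease that cleaves the ligand precursors, had a log2-fold change of 0.49 (adjusted p = 0.075) and ITGB5, another integrin subunit, of 0.49 (adjusted p = 0.142). Of the co-receptors, 5 of 6 were tested and 0 were called in either fit. Of all genes, 0.201% were called without the block and 14.5% with it. NRP1 had 310.4 and 291 CPM in control and 400.2 and 402 CPM in knockdown libraries (log2-fold change 0.42, adjusted p = 0.098), ENG had a log2-fold change of 0.32 (adjusted p = 0.144) and TGFBR3, which presents TGFB2 to the receptor, of 0.20 (adjusted p = 0.479).

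Among the inhibitors, all 15 were tested, 7 with higher and 8 with lower levels (median −0.02), and at an adjusted p below 0.05 2 had fallen (2 of 15 against 8.44% of all genes). With the replicate block 2 were up- and 4 were downregulated, 6 of 15 against 14.5% of all genes. SMURF2, the ubiquitin ligase that SMAD7 brings to the receptors, had 246 and 199.6 CPM in control and 80.2 and 96.9 CPM in knockdown libraries, the groups being far apart (log2-fold change −1.33, standard error 0.17, adjusted p = 0.018). SMAD6, the inhibitor that acts mainly on BMP signals, had 4.12 and 3.69 CPM in control and 1.59 and 1.12 CPM in knockdown libraries (log2-fold change −1.52, adjusted p = 0.044), opposite in direction to SMAD7. TRIM33, which modifies SMAD4, had a log2-fold change of −0.72 (adjusted p = 0.050), and it was downregulated with the block (adjusted p = 0.0022). Of the adaptors and cofactors, 11 of 12 were tested, and at an adjusted p below 0.05 2 had fallen and 0 had risen (2 of 11 against 8.44% of all genes). These were TAB2, an adaptor of the kinase TAK1, with 121 and 114 CPM in control and 75.4 and 78.6 in knockdown libraries (log2-fold change −0.61, adjusted p = 0.036), and MAP3K7, which encodes TAK1 itself (log2-fold change −0.56, adjusted p = 0.0499). The deubiquitinase USP4 had −0.38 (adjusted p = 0.118).

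All 38 target genes were tested, and 20 had higher and 18 lower levels (median 0.13), with 1 upregulated, 6 risen at an adjusted p below 0.05 and 0 fallen (1 of 38 against 0.201% and 6 of 38 against 8.44% of all genes). CDKN2B, which encodes the cell cycle inhibitor p15 and is a classical target of SMAD3 in growth arrest, was the gene called. It had 34.8 and 38.4 CPM in control and 153 and 161 CPM in knockdown libraries (log2-fold change 2.10, standard error 0.12, adjusted p = 0.0075), and the 2 isolates gave 2.14 and 2.06. JUNB, a subunit of AP-1, had 72.8 and 82.7 CPM in control and 239 and 208 CPM in knockdown libraries (log2-fold change 1.52, adjusted p = 0.011), with 14.3% of its exonic bases shared with HOOK2 on the opposite strand. HAS2, which makes hyaluronan, had 11.0 and 16.2 CPM in control and 63.0 and 73.4 CPM in knockdown libraries (log2-fold change 2.32, adjusted p = 0.012). With the replicate block 8 target genes were up- and 6 were downregulated, 14 of 38 against 14.5% of all genes.

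CTGF, a matrix-associated growth factor named here after its values were seen, had 712 and 871 CPM in control and 708 and 540.0 CPM in knockdown libraries (log2-fold change −0.34, adjusted p = 0.312). Also named after the fact are the 6 target genes downregulated with the block. They were the contractile genes ACTA2, TPM1 and CNN1, the matrix genes ELN and FN1, and TIMP3, an inhibitor of matrix proteases. The groups of CNN1, FN1 and TIMP3 overlapped, with adjusted p-values of 0.258, 0.283 and 0.453 from edgeR without the block. Those of ACTA2, TPM1 and ELN, whose groups did not overlap, were 0.1115, 0.0878 and 0.087. The 8 upregulated with the block were CDKN2B, JUNB, HAS2, SNAI2, RHOB, BHLHE40, VCAN and TIMP1. In that fit the matrix proteoglycan VCAN had a log2-fold change of 0.77 (adjusted p = 0.0013) and the protease inhibitor TIMP1 of 0.83 (adjusted p = 0.0016). Matrix genes of the list thus stood on both sides. POSTN had 0.58 (adjusted p = 0.003) and the collagen gene COL3A1 0.41 (adjusted p = 0.0158), both under the threshold on size, while COL1A1 had −0.10 and COL1A2 −0.06 in that fit. ACTA2, smooth muscle actin, had 235 and 61.6 CPM in control and 43.4 and 27.2 CPM in knockdown libraries (log2-fold change −1.82 with the block, adjusted p = 0.0013), with 31.3% of its exonic bases in other genes. The control of I90-10 stood high for ACTA2, TPM1, FN1 and the smooth muscle marker ACTG2, whose counts were 18414 and 7536 in control and 4172 and 2033 in knockdown libraries. Over the 4 smooth muscle markers the summed CPM was 702 and 286 in control and 218 and 137 in knockdown libraries, and ACTG2 made up 627 of the 702. SMTN, the other abundant marker, had 71.8 and 80.3 CPM in control and 70.7 and 70.3 CPM in knockdown libraries (log2-fold change −0.11, adjusted p = 0.571). MYH11 and DES had no more than 65 counts in any library, with log2-fold changes of −0.94 (adjusted p = 0.306) and 0.51 (adjusted p = 0.713). The part of these genes in the levels of the members was not tested.

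**Figure D5:**
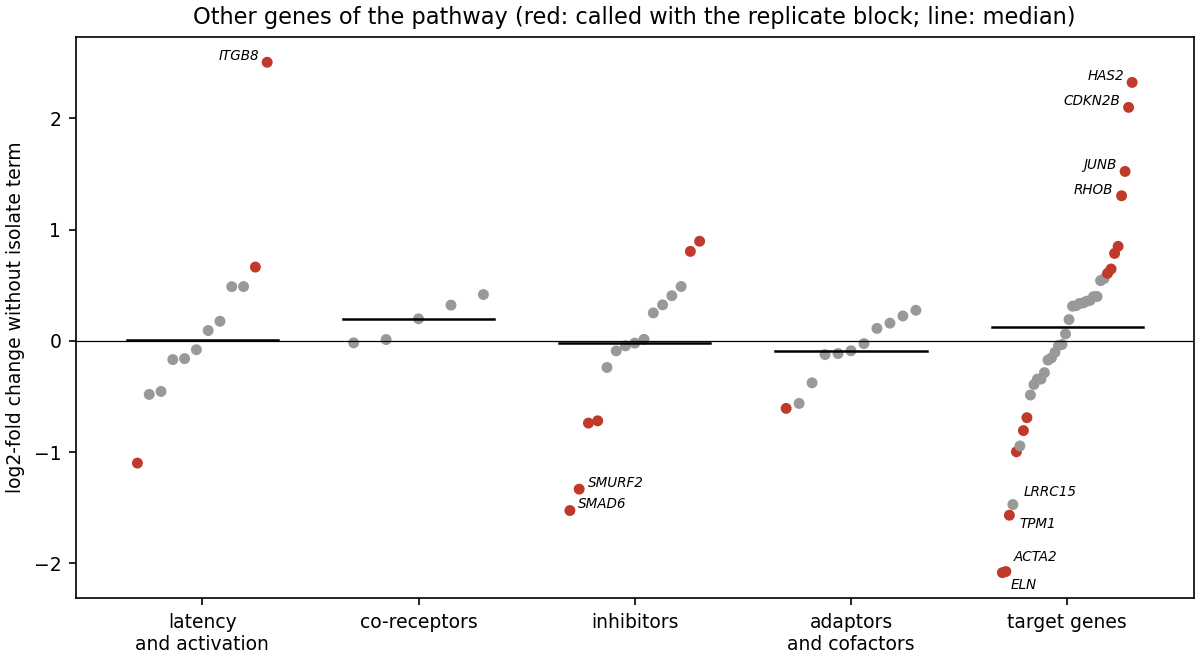
Log2-fold change upon HMGB1 knockdown, without a term for the isolate, of the tested genes in the 5 pathway lists (points, sorted within a list), with the median of each list as a line. Red points were called with the replicate block, and genes beyond 1.2 in either direction are named. The medians lie near 0 while single genes such as ITGB8, HAS2 and CDKN2B lie above 2.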

How the data were processed

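RNA-seq libraries of IMR90 (2 control, 2 HMGB1 knockdown) were analysed from the counts per gene that the authors deposited. The authors mapped reads to hg19 with STAR and counted unique reads with featureCounts, and each deposited file holds 1 library's raw counts with no normalization. Tool versions and the strand setting are not given in the sources used here. The files held 29861687 to 35317010 reads on 63677 genes, of which 55665 were matched to a symbol.

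Genes were filtered with filterByExpr, scaled by TMM and tested across all 15398 genes left with the quasi-likelihood test of edgeR 4.0.16 (limma 3.58.1, R 4.3.3) and Benjamini-Hochberg adjustment, without an isolate term. Calls required an adjusted p under 0.01 together with a log2-fold change beyond 0.6 in either direction. Standard errors are the log2-fold change over the square root of F. Replicate numbers pair the libraries because both groups used the same 2 isolates, and deviations from the group means had a correlation of 0.46 between same-numbered libraries. The fit with a replicate block for the isolate is therefore given beside the results. Other alternatives were other size factors, other filters, DESeq2 1.42.0 with or without the block, RUVs with 1 factor (written out, all genes as controls), an adjusted p below 0.05, and leaving out each library. The fits were also run on simulated data that held no difference between the isolates. That simulation cannot say whether the fit with or without the block is the better one here.

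Within-isolate ratios carry exact 95% binomial counting intervals, which cover counting error only. UTRs came from GENCODE lifted to GRCh37, the longest per gene that ends within the gene's span in the count files. The members, gene lists and the word GCAGTT were chosen with earlier results of these data known. Named were all members, HMGB1, and in each list the genes called and the 3 with the smallest p, with other names marked as chosen after their values were seen. Protein sequences were not used here. A result for 1 target gene is not reported here.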

Additional observations from a re-analysis of the deposited data

Results flagged for a closer look

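TGFB2 went in opposite directions in the 2 isolates, with a log2 ratio of knockdown to control of 0.47 in I90-10 (95% counting interval 0.31 to 0.62) and −0.32 in I90-79 (−0.44 to −0.21). Each isolate has 1 library per treatment, so the difference was not tested. Groups of 2 libraries are too small for a check of single outlying libraries.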

How the results depend on the processing

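The numbers of called genes differed with the model, the filter on low counts and the threshold, and apart from the looser threshold itself the cause was not tested. Against 0 members called higher and 0 lower, TGFB1 and SMAD7 were called higher in 3 settings. These were the isolate as a replicate block, no filter on low counts, and DESeq2 with the replicate block. TGFB1 alone was called higher with DESeq2 (0.65, adjusted p = 0.0089) and with RUVs followed by DESeq2 (0.61, adjusted p = 0.0037). The study itself normalized with RUVs and tested with DESeq2 at these thresholds. With the block at an adjusted p below 0.05, added after the data had been seen, 2 members were called higher and 4 lower, beside 32.3% of all genes. The pathway genes called higher and lower (1 and 0) were 12 and 13 without the filter, 12 and 12 with the block, 11 and 6 with DESeq2, 12 and 10 with DESeq2 and the block, 16 and 4 with RUVs, 7 and 4 at an adjusted p below 0.05, and 25 and 19 with the block at that threshold. Over all genes (10 and 21) the numbers were 1118 and 1275 without the filter, 1028 and 1207 with the block, 728 and 818 with DESeq2, 967 and 1091 with DESeq2 and the block, 765 and 832 with RUVs, 606 and 693 at an adjusted p below 0.05, 2452 and 2516 with the block at that threshold, and 6 called higher with at least 10 counts in every library. Leaving out each library in turn gave between 0 and 6 higher and between 0 and 3 lower pathway genes, between 0 and 305 higher and between 0 and 337 lower genes in all, and a log2-fold change of HMGB1 between −3.77 and −3.38, no longer past the threshold without knockdown replicate 1 (adjusted p = 0.049) or 2 (adjusted p = 0.032).

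TGFB1, TGFB3, TGFBR1, TGFBR2, SMAD2, SMAD3, SMAD4 and SMAD7 kept their direction in all 12 alternative fits. These fits reuse the same libraries, in whole or in part, and the share of all genes that kept their direction was not taken. For TGFB3 the value without knockdown replicate 1 was 0.05 (SE 0.34), and leaving out libraries gave between 0.05 and 0.85. SMAD7 ranged from 0.45 to 1.55 in this way and was 0.51 with RUVs (adjusted p = 0.104). TGFB2 turned to 0.0571 with the replicate block and 0.0695 with DESeq2 and the block, and ranged from −0.49 to 0.65 when libraries were left out (0.65 without control replicate 2, 0.13 without knockdown replicate 1). TGFBI ranged from −0.11 to 0.37, below 0 without control replicate 2 (−0.02) or knockdown replicate 1 (−0.11). Without division by length, the shares in the control libraries moved from 79.9%, 17.2% and 2.89% to 71.7%, 24.4% and 3.93% for TGFB1, TGFB2 and TGFB3, from 7.70% and 92.3% to 10.8% and 89.2% for TGFBR1 and TGFBR2, and from 7.47%, 87.0% and 5.54% to 10.6%, 81.8% and 7.63% for SMAD2, SMAD3 and SMAD4. Depth limits TGFB3 most, at between 123 and 248 reads a library.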

Other observations

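Among the 81 other pathway genes tested, those whose levels over the 4 libraries were nearest to the profile of TGFB1, the member with the smallest p in the fit without the isolate, were FURIN, ITGB5 and SNAI2. Their Euclidean distances, from log2 CPM centred on each gene's mean, were 0.22, 0.26 and 0.27. SNAI2, a transcription factor of mesenchymal cells, had 103 and 98.3 CPM in control and 163 and 144 CPM in knockdown libraries, a log2-fold change of 0.61 (adjusted p = 0.0445 from edgeR). With the replicate block SMAD7, TGFBR2, SMAD3 and TGFBR1 had smaller p-values than TGFB1, so the choice of TGFB1 rests on the fit. Over 4 libraries such likeness is a description only.

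Further genes, chosen after their values were seen, passed the thresholds when a replicate block for the isolate was fitted and did not pass without it. LRRC32, which holds latent TGF-β on the cell surface, had 42.5 and 28.7 CPM in control and 70.2 and 42.6 CPM in knockdown libraries (log2-fold change 0.65 with the block, adjusted p = 0.0024). THBS1, a matrix protein that can activate latent TGF-β, had 1155 and 356 CPM in control and 503 and 203 CPM in knockdown libraries (log2-fold change −1.01 with the block, adjusted p = 0.000589), and its groups overlapped, with the control of I90-10 above the other 3 libraries. The SMAD co-repressor TGIF1 had 58.8 and 87.5 CPM in control and 135 and 138 CPM in knockdown libraries (log2-fold change 0.92 with the block, adjusted p = 0.0016), whereas its relative TGIF2 had 30.1 and 23.3 CPM in control and 18.9 and 13.0 CPM in knockdown libraries (log2-fold change −0.75, adjusted p = 0.0023).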
